A study of Mus musculus with 24 samples.

Results

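The miRNA genes from miR-379 to miR-410 form the distal block of the imprinted Dlk1-Dio3 locus on mouse chromosome 12. MicroRNAs (miRNAs) are short RNAs that repress messenger RNAs, and each hairpin precursor can give 2 mature products, 1 from its 5p arm and 1 from its 3p arm. Members were taken by name, as every entry of the count table for any arm of 39 hairpin names of the block. The block was chosen with earlier results of these data known. This gave 77 of the 1907 miRNA names in the table, of which 48 (20 from 5p arms and 28 from 3p arms) had enough counts to be tested, together with 510 other miRNAs. The samples were small RNA libraries of mouse subcutaneous adipose tissue, a white fat depot. They formed 6 groups of 4 libraries, with control and high-fat feeding each sampled on day 1, at week 1 and at week 3. The sources used here give no strain, sex or age. Separate animals behind the libraries of a group are not stated by the labels, and each p-value therefore reflects the spread between libraries, which may be technical.

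The Dlk1-Dio3 locus carries protein-coding genes that are expressed from the paternal chromosome, among them Dlk1, which encodes an inhibitor of fat cell formation, and non-coding RNAs that are expressed from the maternal chromosome. The miRNAs of the distal block are thought to be cut from long maternal transcripts that run through the cluster, the last part of which is annotated as Mirg. They are best known from brain and placenta, and mice that lack the block have a disturbed metabolic adaptation around birth. The first 8 bases of a miRNA hold the seed, bases 2 to 8, which pairs with target messages, so miRNAs that share a seed are expected to share many targets.

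Of the 77 members, 72 had a mature sequence in RefSeq (GRCm38.p6), and 36 of the hairpins had a position. These lay between positions 109709060 and 109747960 of chromosome 12 (GRCm38, the build called mm10), a stretch of 38.9 kb, and 35 of the 36 were on the plus strand. The exception, miR-299b, overlaps miR-299a on the opposite strand, so the counts of that pair are uncertain where strand was not used in counting. In GENCODE vM21, 23 of the hairpins lay outside any annotated gene other than their own. The other 13, from miR-382 onward, lay within Mirg (chr12:109729764-109749460, plus strand), and 9 of these overlapped a Mirg exon. The sequences below are those of the 4 most abundant members, of near copies among the tested members, and of members that the comparisons turn on, with the seed in capitals.
miR-379-5p: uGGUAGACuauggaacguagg
miR-411-5p: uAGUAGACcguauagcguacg
miR-379-3p: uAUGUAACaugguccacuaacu
miR-411-3p: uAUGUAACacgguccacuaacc
miR-381-3p: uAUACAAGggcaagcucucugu
miR-300-3p: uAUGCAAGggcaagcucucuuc
miR-541-5p: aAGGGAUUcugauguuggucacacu
miR-376b-3p: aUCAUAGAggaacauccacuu
miR-376a-3p: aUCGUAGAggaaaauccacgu
miR-369-5p: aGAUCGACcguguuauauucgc
miR-369-3p: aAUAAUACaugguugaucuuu
miR-154-3p: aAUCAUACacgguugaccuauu
miR-154-5p: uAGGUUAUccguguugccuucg
miR-495-3p: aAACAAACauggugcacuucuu
miR-382-5p: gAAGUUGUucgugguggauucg
miR-485-3p: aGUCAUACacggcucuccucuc

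Among the 45 tested members with a sequence, 1 seed was shared in full, that of miR-379-3p and miR-411-3p, and these miRNAs differed at 2 of 22 bases (U10C and U22C, counted from the 5′ end, with the base of the first-named miRNA first). Their 5p partners, miR-379-5p and miR-411-5p, differed in the seed by G2A. The seeds of miR-300-3p and miR-381-3p differed by G4A, with 3 differences over 22 bases in all. The seeds of miR-376b-3p and miR-376a-3p differed by A4G, with 3 differences over 21 bases. miR-154-3p and miR-369-3p differed by C4A in the seed and at 4 of 21 bases in all. How reads that match near copies were assigned is not given in the sources used here, so counts of such pairs carry that uncertainty. The tested members miR-376c-3p, miR-487b-3p and miR-485-5p are given by name only.

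Library totals ran from 1.99 to 16.3 M counts (M, 1e+06), so that 3 counts corresponded to between 0.186 and 1.48 CPM (counts per 1e+06 counts, on library sizes scaled by TMM, the trimmed mean of M-values). Totals did not overlap between diets on day 1 (5.36 to 11.3 M in control, 1.99 to 5.28 M in high-fat libraries). The same held at week 1 (5.32 to 16.3 M and 2.54 to 4.15 M). At these times diet and depth went together, and the part of depth in the diet differences was not tested. The adipocyte-enriched miRNAs miR-148a-3p, miR-378a-3p and miR-193b-3p were abundant in all 24 libraries. Skeletal muscle miRNAs (6 names, miR-1a-3p and miR-133a-3p among them) were highest in high-fat week 1 replicate 2, high-fat week 3 replicate 4 and control week 1 replicate 4, with a mean log2 CPM of 10.40, 9.04 and 8.93, against 1.34 in the library with the least. Leukocyte miRNAs (6 names, miR-142a-3p and miR-223-3p among them) had their smallest means in replicates 1 and 3 of the high-fat week 1 group (8.58 and 8.60) and replicate 1 of the control week 3 group (8.61), against 11.41 in the highest library. In bulk tissue, fewer cells of a type and less RNA per cell cannot be told apart.

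Together the 77 members made up 0.257% to 0.955% of all miRNA counts. On unscaled library totals, the block held 4746, 4883, 4874 and 5863 CPM in the 4 control libraries of day 1, and 5317, 5376, 3560 and 5015 CPM in the 4 high-fat libraries. At week 1 the control libraries held 2570, 3255, 4511 and 8563 CPM, and the high-fat libraries 5121, 7735, 9548 and 4829 CPM. At week 3 the control libraries held 4564, 4772, 3020 and 4978 CPM, and the high-fat libraries 4366, 4468, 3536 and 4980 CPM. The diets overlapped at each time, and week 1 had both the lowest library of all (control replicate 1) and the highest (high-fat replicate 3). The high control library of week 1, replicate 4, also had the most muscle miRNA of its group, and the low ones, replicates 1 and 2, had the most leukocyte miRNA. The part of other cell types in these levels was not tested.

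**Figure D1:**
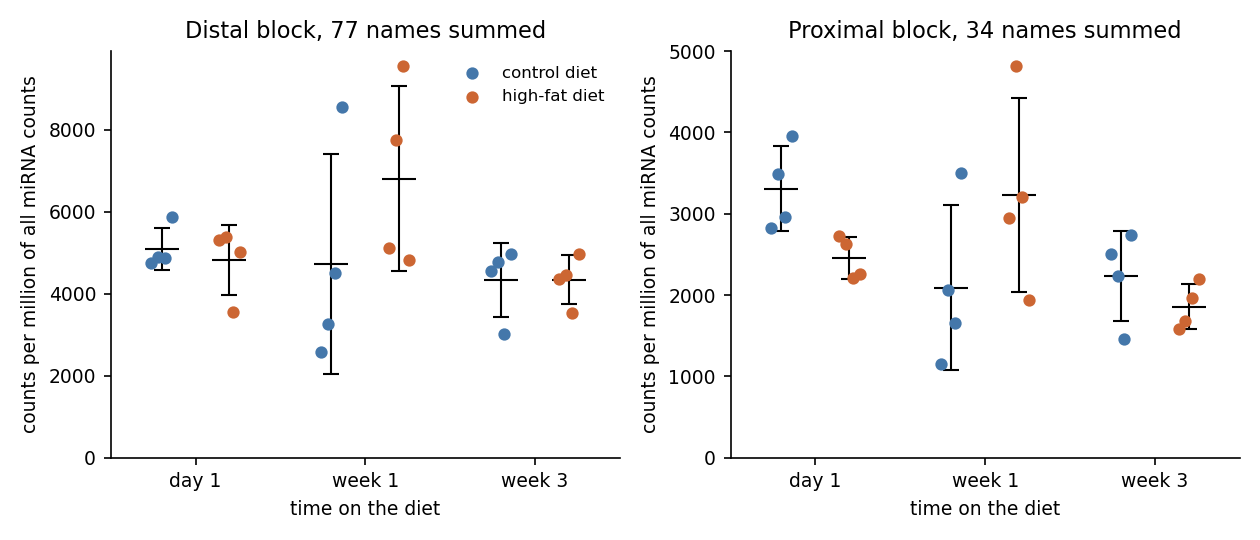
Summed counts of the distal block (left, 77 names) and of the proximal block of the same locus (right, 34 names), in CPM on unscaled library totals, by time on the diet. Each point is 1 library, bars are the mean ± SD of 4 libraries, and week 1 shows the widest spread in both diets, from 2570 to 9548 in the distal block.

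The proximal block of the locus, 34 names that include miR-127-3p, miR-434-3p and miR-136-5p, served as the nearest comparison. Counts of the distal block were 1.40 to 1.68 times those of the proximal block in the 4 control libraries of day 1. The ratio was 1.82 to 2.14 in the control libraries of week 3, which did not overlap day 1, but at week 1 it was 1.58 to 2.73, which did. In the high-fat libraries the ratio was 1.61 to 2.22 on day 1, 1.61 to 2.98 at week 1 and 1.80 to 2.76 at week 3, with overlapping ranges. The ratio was computed over members chosen with earlier results known and was given no test.

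A few arms dominated the block. miR-379-5p (chr12:109709065-109709085), the first product of the cluster, averaged 1550 CPM over the 24 libraries and was the most abundant member in 21 of them. miR-381-3p averaged 1230 CPM and was first in the other 3 libraries. miR-411-5p averaged 703 CPM and miR-541-5p 320 CPM. These 4 held 75.6% of the members' counts on average, with a range of 70.2% to 82.7% over the libraries. The median tested member had 22.1 CPM, 19 tested members averaged under 10 CPM, and the highest and lowest tested members differed 1920-fold in mean CPM. These are levels of RNAs of nearly the same length (22 bases at the median), so they were compared without a length correction, although ligation bias in small RNA libraries can differ between sequences.

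Below these came miR-300-3p with 126.8 CPM and miR-134-5p with 125 CPM. miR-134-5p is known to repress Limk1 in the dendritic spines of neurons. Then came miR-382-5p with 81.3 CPM, miR-376b-5p with 72.0 CPM and miR-409-3p with 70.8 CPM. miR-411-3p (62.3 CPM), miR-299a-3p (60.1 CPM) and miR-495-3p (52.4 CPM) completed the 12 most abundant members. The 29 members that were not tested held 0.152% of the members' counts. Of these, 6 had 0 counts in all 24 libraries (miR-299b-3p, miR-1197-5p, miR-758-5p, miR-654-5p, miR-654-3p and miR-496b) and 23 had at least 1 count.

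**Figure D2:**
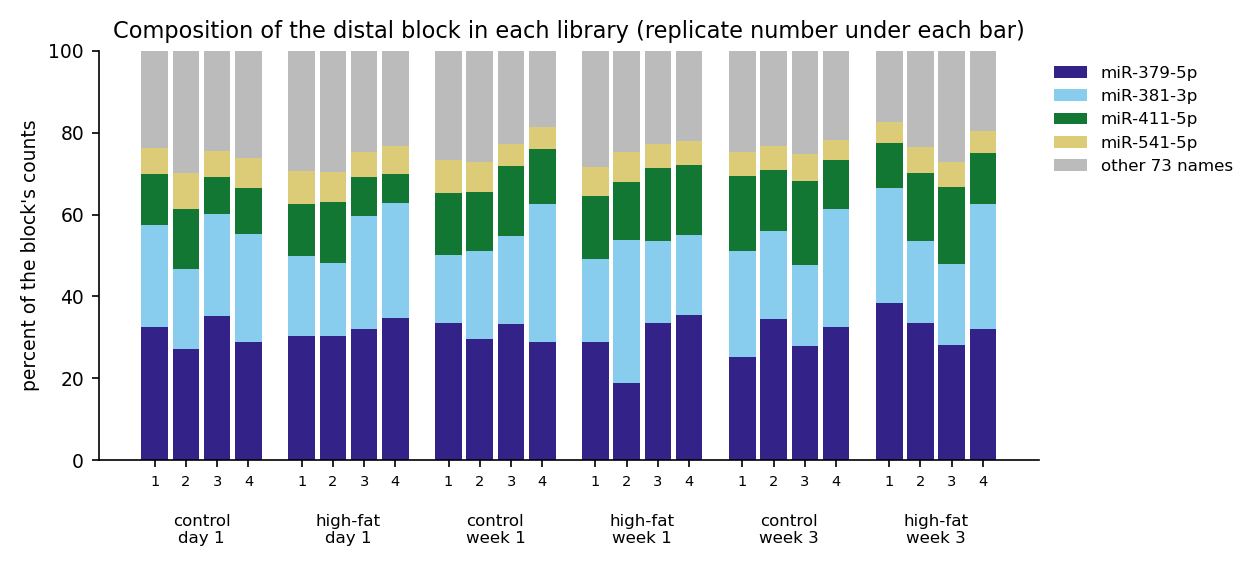
Share of the block's counts held by its 4 most abundant members and by the other 73 names, in percent, with 1 bar per library. miR-379-5p held 18.9% in high-fat week 1 replicate 2 and up to 38.4% elsewhere, and miR-381-3p held most in that same library (34.96%).

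The composition of the block varied between libraries, with miR-379-5p at 18.9% to 38.4% and miR-381-3p at 16.75% to 34.96%. miR-379-5p held on average between 29.2% and 33.0% of the block in the 6 groups, and miR-381-3p between 23.3% and 24.6%. The share of miR-411-5p was 11.8% ± 2.34 (SD, n = 4) on day 1 of the control diet and 11.05% ± 3.46 on day 1 of the high-fat diet. It was 15.01% ± 1.56 and 16.1% ± 1.72 at week 1, and 16.4% ± 3.84 and 14.7% ± 3.63 at week 3, in the same order. Within groups, single members had a median SD of 0.464 on the log2 CPM scale. After the mean of the 48 members was subtracted in each library, this SD was 0.320, and it was smaller for 47 of the 48. A part of the spread between libraries was thus common to the members. Each member is itself part of that mean. No other set of miRNAs was treated in this way, so a trait particular to the block is not shown.

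The first comparison of diets, after 1 day, found no member past the threshold (adjusted p under 0.05, Benjamini-Hochberg over all 558 tested miRNAs) with edgeR's quasi-likelihood test, DESeq2 or limma-voom, and no member had an unadjusted p under 0.05 (1.25% of all tested miRNAs were higher and 1.79% lower at that level). edgeR called 0% of all tested miRNAs in either direction. The log2 fold change (high-fat over control) was below 0 for 35 of 48 members, against 51.6% of all tested miRNAs, and its median was -0.12, beside -0.01 for all. miR-376b-5p had the smallest p. It stood at 70.2, 82.5, 108 and 111 CPM in the control libraries and at 57.0, 65.4, 57.5 and 62.1 CPM in the high-fat ones. It was the only member whose groups did not overlap (1.25% of all tested miRNAs were lower without overlap), with a log2 fold change of -0.62 ± 0.32 (SE, edgeR adjusted p = 0.982). The median turned to 0.03 without control day 1 replicate 4 and to 0.01 without high-fat day 1 replicate 3. It was -0.23 without control day 1 replicate 1 and -0.23 without high-fat day 1 replicate 2. With the leukocyte mean as a covariate it was -0.01 and with the muscle mean -0.07.

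The most abundant members were near 0 on day 1. miR-379-5p had 1442, 1183, 1989 and 1811 CPM on the control diet and 1487, 1571, 1231 and 1713 CPM after high-fat feeding, with a log2 fold change of -0.10 ± 0.32 (edgeR adjusted p = 0.982). miR-381-3p had 1111, 859, 1418 and 1644 CPM against 971, 929, 1054 and 1388 CPM, with -0.21 ± 0.45 (edgeR adjusted p = 0.982). The groups overlapped for both. With 1 library left out, the values ranged from -0.219 (control replicate 2) to 0.0502 (control replicate 3) for miR-379-5p and from -0.358 (control replicate 2) to 0.0256 (control replicate 4) for miR-381-3p. miR-369-3p (-0.52 ± 0.28) had the next smallest p on the lower side, and miR-667-3p (0.42 ± 0.34), among the higher members, overlapped between diets (edgeR adjusted p = 0.982 for each). Without control replicate 3, miR-369-3p had -0.33. Leaving out high-fat replicates 1, 2 and 3 in turn gave 0.27, 0.26 and 0.67 for miR-667-3p.

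After 1 week, all 48 tested members had a log2 fold change above 0, against 48.6% of all tested miRNAs, with a median of 0.61, beside -0.02 for all. edgeR called none of them (0% of all tested miRNAs in either direction), and neither did DESeq2 or limma-voom (0 and 17 of all tested miRNAs), while 14 had an unadjusted p under 0.05 in edgeR (5.02% of all tested miRNAs were higher at that level). The smallest adjusted p of a member was 0.225. A part of the spread between libraries was common to the members, so their signs, here and in the other comparisons, are not separate observations. The measured fold changes ran from 0.15 to 1.10, so members of all abundance classes and all positions along the cluster lay on the same side. All high-fat libraries of week 1 had smaller totals than all control libraries of that time, and the part of depth was not tested. The plot of fold changes along the cluster shows the 3 times side by side.

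**Figure D3:**
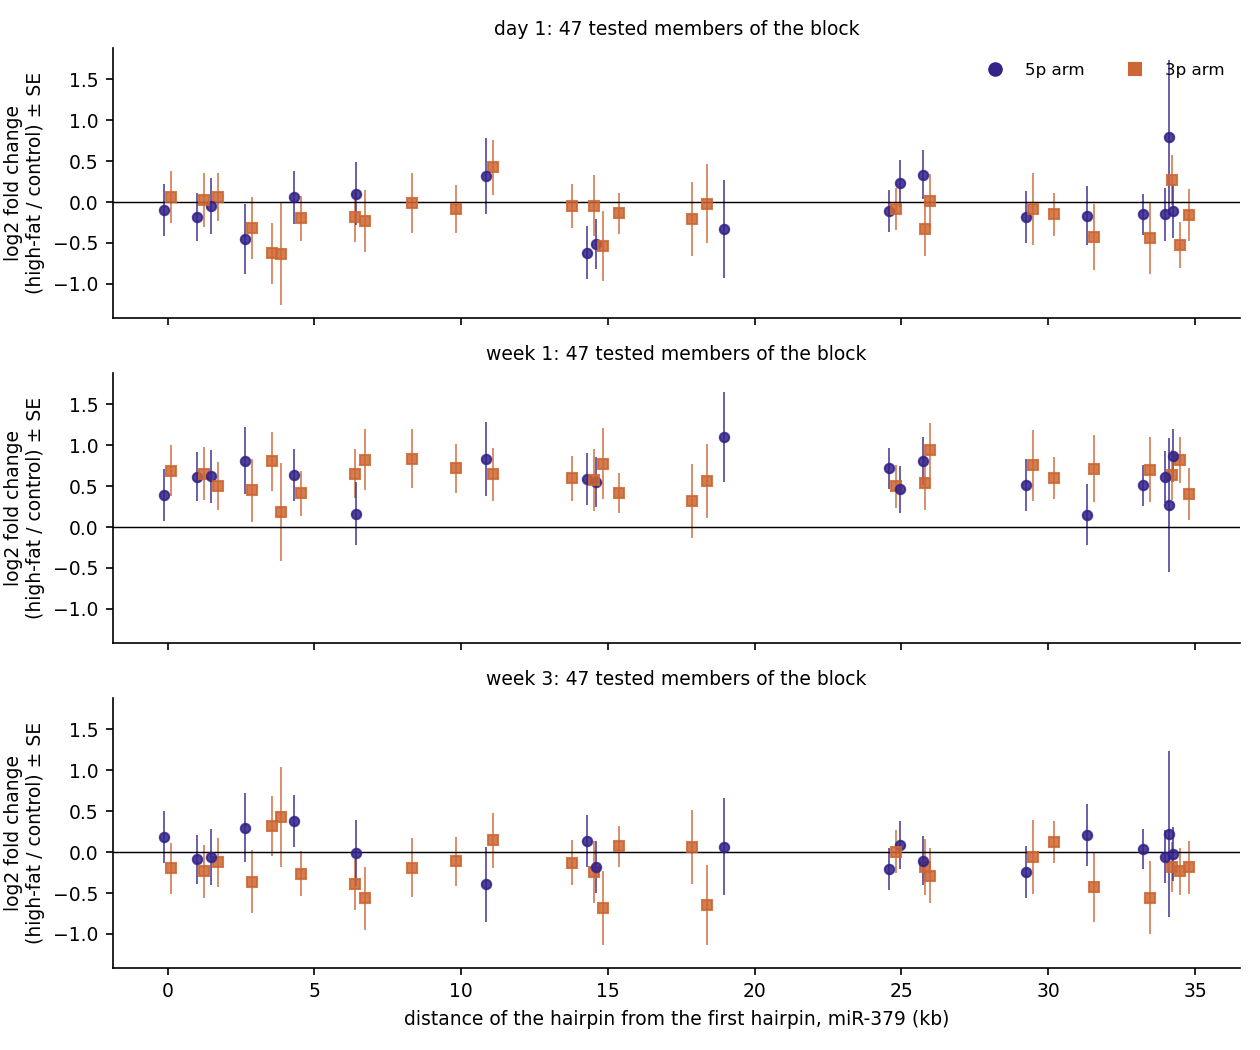
Log2 fold change of high-fat over control (± SE, edgeR) for the 47 tested members whose hairpin has a RefSeq position, against the distance of the hairpin from miR-379 in kb, with 5p arms as circles and 3p arms as squares. All points lie above 0 at week 1 and on both sides of 0 on day 1 and at week 3.

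miR-369-3p, which can bind AU-rich elements of the TNF message, had the smallest p at week 1. It stood at 14.2, 19.9, 17.3 and 28.8 CPM in the control libraries and at 31.6, 56.5, 33.5 and 19.9 CPM in the high-fat ones. Replicates 1 to 3 on the high-fat diet lay above all control libraries, and replicate 4 lay among them. The log2 fold change was 0.82 ± 0.28 (edgeR adjusted p = 0.225), and 0.50 without high-fat replicate 2. Its partner miR-369-5p was at 9.57, 12.9, 16.4 and 14.3 CPM against 17.7, 27.7, 37.0 and 15.3 CPM, with 0.88 ± 0.33 (edgeR adjusted p = 0.225).

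miR-485-3p was the only member whose groups did not overlap at week 1 (0.896% of all tested miRNAs were higher without overlap). It had 20.8, 19.5, 30.7 and 30.8 CPM on the control diet and 43.1, 37.3, 76.8 and 39.0 CPM on the high-fat diet. Its log2 fold change was 0.94 ± 0.33 and that of the other arm, miR-485-5p, was 0.81 ± 0.30 (edgeR adjusted p = 0.225 for each). miR-382-5p had 55.1, 67.3, 63.8 and 74.6 CPM on the control diet and 103, 150, 108 and 67.0 CPM on the high-fat diet. High-fat replicates 1 to 3 were above all control libraries and replicate 4 was not, and the log2 fold change was 0.72 ± 0.26 (edgeR adjusted p = 0.225).

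At week 1, the fold changes of miR-379-5p and miR-381-3p, the most abundant members, were below the median of the block. miR-379-5p had 951, 873, 1439 and 2492 CPM on the control diet and 1449, 1295, 2978 and 1851 CPM on the high-fat diet. The groups overlapped, and the log2 fold change of 0.40 ± 0.32 (edgeR adjusted p = 0.559) was 0.09 without high-fat replicate 3 and 0.80 when control replicate 4 was left out. Leaving out control replicate 1 gave 0.24 and control replicate 2 gave 0.22. miR-381-3p had 476, 634, 933 and 2930 CPM on the control diet and 1007, 2391, 1795 and 1005 CPM on the high-fat diet. Control replicate 4 was the highest library of both diets, and the log2 fold change was 0.32 ± 0.45 (edgeR adjusted p = 0.745). Leaving out control replicate 4 gave 1.19 and leaving out high-fat replicate 2 gave 0.03, which are the week 1 libraries with the most muscle miRNA. Leaving out control replicates 1, 2 and 3 in turn gave 0.05, 0.10 and 0.20, and leaving out high-fat replicate 1 or 4 gave 0.48. Log2 fold changes were 0.61 ± 0.30 for miR-411-5p (0.35 without high-fat replicate 3 and 0.99 without control replicate 4) and 0.51 ± 0.25 for miR-541-5p (0.86 without control replicate 4), each with an edgeR adjusted p of 0.35.

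Among members with described targets, miR-134-5p had 71.2, 81.1, 116 and 184 CPM on the control diet and 150, 96.0, 224 and 153 CPM on the high-fat diet at week 1. Its groups overlapped, with a log2 fold change of 0.46 ± 0.29 (edgeR adjusted p = 0.439). That value was 0.23 without high-fat replicate 3, 0.29 without control replicate 1 and 0.80 without control replicate 4. miR-410-3p, the last abundant product of the cluster, had 0.40 ± 0.32 (edgeR adjusted p = 0.553). Leaving out control replicates 1, 2 and 4 in turn gave 0.16, 0.23 and 0.86, and leaving out high-fat replicate 3 gave 0.23. miR-329-3p, miR-487b-3p, miR-494-3p and miR-495-3p have been studied in the growth of blood vessels after ischaemia. Their log2 fold changes were 0.41 ± 0.27, 0.56 ± 0.45, 0.66 ± 0.31 and 0.72 ± 0.30 (edgeR adjusted p = 0.46, 0.559, 0.322 and 0.275). Without control replicate 4 those of miR-329-3p, miR-487b-3p and miR-494-3p were 0.83, 1.31 and 1.11. miR-329-3p had 0.14 when high-fat replicate 3 was left out, and miR-487b-3p had 0.29 for high-fat replicate 2 and 0.34 for control replicate 1. In the miR-376 family, whose precursors are known for A-to-I editing in the brain, miR-376a-3p had 0.77 ± 0.43, miR-376b-3p 0.57 ± 0.38 and miR-376c-3p 0.59 ± 0.27 (edgeR adjusted p = 0.385, 0.458 and 0.317). miR-376b-3p had 1.04 without control replicate 4, and miR-376c-3p had 0.29 without high-fat replicate 2. None of these passed the threshold.

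The proximal block lay on the same side at week 1, with 25 of 25 tested members above 0 and a median of 0.53. Leukocyte miRNAs differed in the opposite direction at week 1, with overlapping ranges (9.47 to 11.41 in control and 8.58 to 10.34 in high-fat libraries). They averaged 10.70 ± 0.86 (mean log2 CPM, SD, n = 4) in control libraries and 9.39 ± 0.93 in high-fat libraries, and with their mean as a covariate the median of the members was 0.27, with 43 of 48 above 0 and 1 at an unadjusted p under 0.05. Without the 3 libraries lowest in leukocyte miRNA, a choice made after seeing the data, the median was 0.46 and 46 of 48 members were above 0. Muscle miRNAs averaged 6.96 ± 1.90 and 6.52 ± 3.24, and with their mean as a covariate the median was 0.65. The 3 libraries highest in muscle miRNA were likewise picked from these data. They include control week 1 replicate 4, the highest control library of the block, and high-fat week 1 replicate 2. Without them the median was 0.85, all 48 were above 0 and edgeR called 5 members, among 31 of the 558 tested miRNAs. These were miR-379-3p (1.23), miR-494-3p (1.17), miR-154-5p (1.10), miR-134-5p (0.97) and miR-300-3p (0.80), each with an adjusted p of 0.0467. Leaving out 1 library at a time gave medians from 0.46 (without high-fat replicate 3, 45 of 48 above 0) to 0.94 (without control replicate 4). Other cell type lists, not used as covariates, went both ways at week 1, with overlapping ranges. Means in high-fat and control libraries were 10.99 ± 0.86 and 10.525 ± 0.16 for epithelial miRNAs (7 names) and 9.55 ± 0.51 and 9.27 ± 0.51 for fibroblast miRNAs (3 names). For the liver miRNA miR-122-5p they were 9.20 ± 0.53 and 7.80 ± 0.66. Adipocyte miRNAs had 12.82 ± 0.08 and 13.01 ± 0.25, and smooth muscle miRNAs 13.96 ± 0.22 and 14.05 ± 0.23. The part of cell composition in the difference was not tested.

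**Figure D4:**
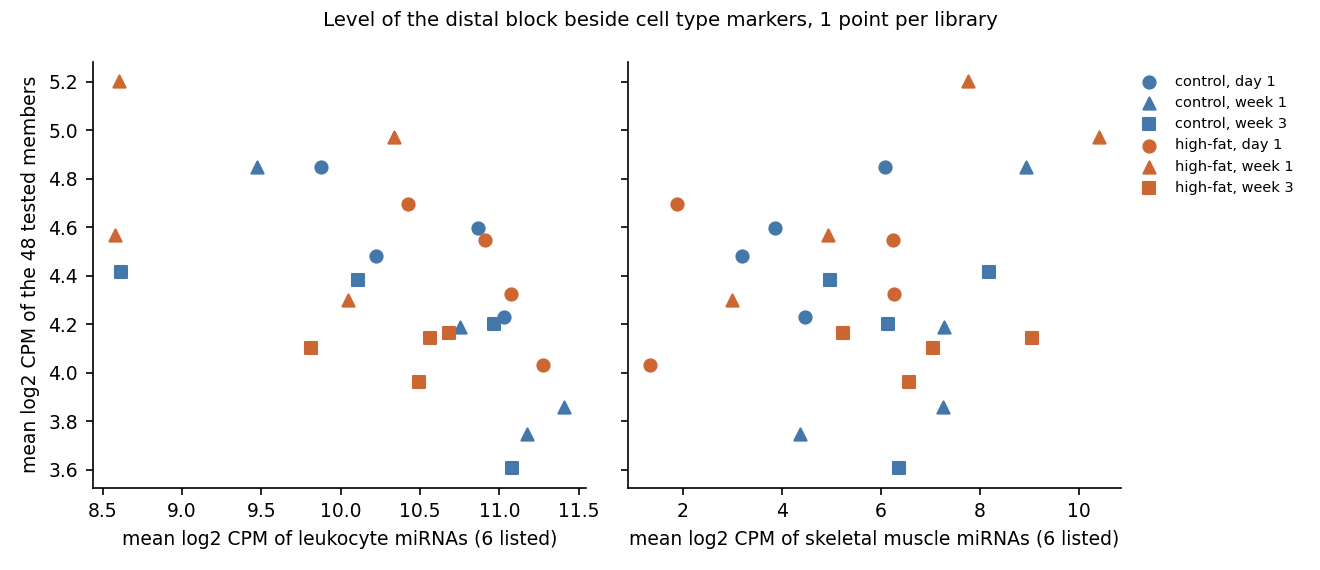
Mean log2 CPM of the 48 tested members against the mean log2 CPM of 6 leukocyte miRNAs (left) and of 6 skeletal muscle miRNAs (right), with 1 point per library, colour for diet and shape for time. The high-fat libraries of week 1 (orange triangles) lie between 8.58 and 10.34 on the leukocyte axis, and the 2 lowest of them are also the lowest libraries of the series there.

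After 3 weeks, the members lay on both sides of 0. edgeR, DESeq2 and limma-voom called none, and edgeR called 0% of all tested miRNAs. None had an unadjusted p under 0.05 (0.538% of all tested miRNAs were higher and 1.25% lower at that level), and none was without overlap (0.358% higher and 0.717% lower). The log2 fold change was below 0 for 31 of 48 members, against 58.1% of all, with a median of -0.11, beside -0.05 for all. Among the named members the smallest p values were those of miR-376a-3p (-0.69 ± 0.45, -0.44 without high-fat replicate 4) on the lower side and miR-666-5p (0.49 ± 0.39) on the higher side, each with an edgeR adjusted p of 0.999. The value of miR-666-5p was 0.13 without high-fat replicate 4 and 0.83 without control replicate 1. The 95% interval of the fold change lay within a factor of 2 in either direction for 29 of the 48 members at week 3 and for 30 on day 1, so for the others a change of that size lay within the interval. miR-379-5p had 1227, 1597, 737 and 1798 CPM on the control diet and 1927, 1474, 1025 and 1651 CPM after high-fat feeding, with 0.18 ± 0.32, and miR-381-3p had 0.06 ± 0.45 (edgeR adjusted p = 0.999 for each). With 1 library left out, these ranged from -0.0203 to 0.371 and from -0.170 to 0.313, lowest without control replicate 3 and highest without control replicate 4 for both. Leaving out control replicates 1, 3 and 4 in turn gave week 3 medians of 0.03, -0.23 and -0.03, and leaving out high-fat replicate 1 gave -0.04. It was 0.03 without the 3 libraries lowest in leukocyte miRNA and -0.03 with the leukocyte mean as a covariate.

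For the diet effect as a mean of the 3 times, the log2 fold change was above 0 for 40 of 48 members (40.3% of all tested miRNAs), with a median of 0.14. edgeR, DESeq2 and limma-voom called none, and 1 member, miR-667-3p (0.40 ± 0.19, edgeR adjusted p = 0.993), had an unadjusted p under 0.05 (0.896% of all tested miRNAs were higher at that level). edgeR called 0% of all tested miRNAs. The median was 0.25 without control week 1 replicate 4, and 0.08 without control week 3 replicate 3 or high-fat week 1 replicate 3. The difference between times was tested directly. The diet effect at week 1 minus that on day 1 was above 0 for 47 of 48 members (50.7% of all), with a median of 0.68, and the effect at week 3 minus that at week 1 was below 0 for 45 of 48 (50.4% of all), with a median of -0.72. These contrasts share the week 1 libraries. edgeR, DESeq2 and limma-voom called no member in either, and edgeR called 0% of all tested miRNAs. In each, 8 members had an unadjusted p under 0.05 (6.09% of all tested miRNAs were higher at that level in the first and 3.05% lower in the second). In edgeR's joint test of both contrasts, which called 0% of all tested miRNAs, 6 members had an unadjusted p under 0.05 (7.35% of all tested miRNAs), and the first was miR-369-3p (unadjusted p = 0.00632, adjusted p = 0.567). With the leukocyte mean as a covariate the medians were 0.23 and -0.30.

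Over time, miR-369-3p had the smallest p of the members in 4 of the 6 comparisons. On the control diet it had 32.3, 37.2, 62.8 and 52.7 CPM on day 1, 14.2, 19.9, 17.3 and 28.8 CPM at week 1, and 20.7, 20.2, 15.5 and 23.5 CPM at week 3. All day 1 libraries were above all later ones. Week 1 differed from day 1 by -1.19 ± 0.28 on the log2 scale (edgeR adjusted p = 0.0814, second of 558 by p), and week 3 differed by -1.21 ± 0.28 (edgeR adjusted p = 0.0507). Both values missed the threshold in edgeR. DESeq2 called the decrease at each time (adjusted p = 0.0103 at week 1 and 0.00669 at week 3), as did limma-voom (0.0019 and 0.0114). edgeR called both without control day 1 replicate 1 (adjusted p = 0.0394 and 0.0246), without the 3 libraries highest in muscle miRNA (0.0143 and 0.0297) and with the muscle mean as a covariate (0.0134 and 0.0151). It called the first without control week 1 replicate 4 (0.0244) and the second with the leukocyte mean as a covariate (0.029). In these edgeR fits the calls over all tested miRNAs numbered 2 to 5 for week 1 and 1 to 4 for week 3. For each of these comparisons, 6 of the 22 alternatives called a member, DESeq2 and limma-voom among them, and the others called none.

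On the high-fat diet miR-369-3p had 35.4, 42.1, 26.8 and 23.7 CPM on day 1, and 17.3, 15.9, 16.3 and 18.2 CPM at week 3. The groups did not overlap, and the difference was -0.92 ± 0.29 (edgeR adjusted p = 0.143; limma-voom called it with adjusted p = 0.0399, DESeq2 did not). At week 1 the high-fat libraries had 31.6, 56.5, 33.5 and 19.9 CPM, which overlapped day 1, with a difference of 0.15 ± 0.28 (edgeR adjusted p = 0.792). With 1 library left out this ranged from -0.175 (high-fat week 1 replicate 2) to 0.336 (high-fat week 1 replicate 4), and it was -0.0111 for high-fat day 1 replicate 3. From week 1 to week 3 on the high-fat diet the difference was -1.07 ± 0.29 (edgeR adjusted p = 0.251, second of 558 by p), and the groups did not overlap.

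The rest of the block at week 1 and week 3 of the control diet lay mostly below day 1. For week 1 against day 1, 36 of 48 members were below 0, against 39.6% of all tested miRNAs, with a median of -0.31, beside 0.10 for all. edgeR called none of the members (0.179% of all tested miRNAs were called lower). DESeq2 called 1, among 7 of all tested miRNAs, and limma-voom called 7, among 22. In edgeR 10 had an unadjusted p under 0.05 (6.27% of all tested miRNAs were lower at that level). After miR-369-3p, the smallest p values were those of miR-376b-3p (-1.12 ± 0.38) and miR-495-3p (-0.84 ± 0.30), each with an edgeR adjusted p of 0.239. miR-376b-3p had 34.2, 34.3, 57.6 and 66.2 CPM on day 1 and 15.4, 14.2, 18.2 and 39.9 CPM at week 1, where replicate 4 overlapped day 1. edgeR called it without that replicate (-1.59, adjusted p = 0.0466), together with miR-300-3p and miR-369-3p. The 1 member without overlap was miR-369-3p (2.33% of all tested miRNAs were lower without overlap). The median was -0.58 without control week 1 replicate 4, -0.17 without control week 1 replicate 2, -0.21 without control week 1 replicate 1 and -0.17 without control day 1 replicate 4. Muscle miRNAs averaged 4.40 ± 1.23 (mean log2 CPM, SD, n = 4) in the control libraries of day 1, 6.96 ± 1.90 at week 1 and 6.42 ± 1.33 at week 3. With their mean as a covariate the median was -0.59, and without the 3 libraries highest in them it was -0.58.

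For week 3 against day 1 on the control diet, 42 of 48 members were below 0 (43.2% of all tested miRNAs), with a median of -0.31, beside 0.09 for all. edgeR called none of the members (0.358% of all tested miRNAs were called lower), DESeq2 and limma-voom called miR-369-3p (among 6 and 4 of all tested miRNAs), and 12 had an unadjusted p under 0.05 (7.35% of all tested miRNAs were lower at that level). Next by p after miR-369-3p were miR-377-5p (-1.14 ± 0.37, edgeR adjusted p = 0.164) and, with an adjusted p of 0.205 each, miR-382-3p (-0.72 ± 0.26), miR-376c-3p (-0.76 ± 0.27) and miR-495-3p (-0.82 ± 0.30). miR-369-3p and miR-300-3p were the 2 members without overlap (3.76% of all tested miRNAs were lower without overlap). miR-495-3p had 41.3, 69.4, 74.2 and 94.5 CPM on day 1 and 54.0, 35.6, 23.2 and 46.0 CPM at week 3, where replicates 1 and 4 lay above the lowest library of day 1. The median was -0.47 without control week 3 replicate 1, -0.19 without replicate 3 and -0.48 without replicate 4 of that group. With the muscle mean as a covariate it was -0.54, and without the 3 libraries lowest in leukocyte miRNA -0.47.

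On the high-fat diet, week 3 lay below day 1 for 39 of 48 members (49.1% of all tested miRNAs), with a median of -0.35, beside 0.00 for all. edgeR and DESeq2 called none (0% of all for edgeR), limma-voom called miR-369-3p (among 14 of all tested miRNAs), and 9 had an unadjusted p under 0.05 (6.27% of all tested miRNAs were lower at that level). There were 6 members whose groups did not overlap, all lower at week 3 (4.3% of all tested miRNAs were lower without overlap): miR-369-3p, miR-376c-3p, miR-495-3p, miR-376b-3p, miR-300-3p and miR-154-3p. miR-495-3p had 69.7, 79.0, 58.8 and 54.7 CPM on day 1 and 28.5, 37.2, 40.2 and 40.8 CPM at week 3, a difference of -0.84 ± 0.30 (edgeR adjusted p = 0.235). miR-376b-3p had 45.2, 56.4, 47.4 and 36.5 CPM on day 1 and 17.8, 26.0, 25.2 and 23.9 CPM at week 3, a difference of -0.9998 ± 0.38 (edgeR adjusted p = 0.235). miR-376c-3p differed by -0.84 ± 0.28 (edgeR adjusted p = 0.202). The median was -0.22 without high-fat day 1 replicate 2 and -0.58 without high-fat day 1 replicate 3. Muscle miRNAs averaged 3.93 ± 2.69 in the high-fat libraries of day 1 and 6.97 ± 1.58 at week 3. The median was -0.62 with their mean as a covariate and -0.53 with the leukocyte mean.

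On the high-fat diet, miR-411-5p was higher at week 1 than on day 1, as were most members. It had 620, 778, 365 and 349 CPM on day 1 and 769, 964, 1593 and 895 CPM at week 1, and the groups overlapped in 1 library, replicate 2 of day 1 (above replicate 1 of week 1). The difference was 1.00 ± 0.30 (edgeR adjusted p = 0.128), and DESeq2 (0.95, adjusted p = 0.0341) and limma-voom (0.92, adjusted p = 0.0358) called it. At week 3 it had 555, 730, 690 and 637 CPM, all below every library of week 1 (-0.69 ± 0.30, edgeR adjusted p = 0.326; -0.42 without high-fat week 1 replicate 3). miR-369-5p, with 16.5, 15.1, 8.59 and 6.90 CPM on day 1 and the week 1 values given above, had 1.03 ± 0.34 (edgeR adjusted p = 0.128), with overlap. For week 1 against day 1 on this diet, 42 of 48 members were above 0 (56.3% of all tested miRNAs), with a median of 0.41, beside 0.08 for all. edgeR called none (0% of all), DESeq2 and limma-voom called miR-411-5p (among 32 and 44 of all tested miRNAs), and 11 had an unadjusted p under 0.05 (11.1% of all tested miRNAs were higher at that level). The 3 members without overlap were miR-323-3p (1.01 ± 0.38), miR-299a-5p (0.91 ± 0.34), each with an edgeR adjusted p of 0.139, and miR-411-3p (0.84 ± 0.33, edgeR adjusted p = 0.146; 3.41% of all tested miRNAs were higher without overlap). The value of miR-323-3p was 0.63 without high-fat day 1 replicate 3. The median was 0.22 without high-fat day 1 replicate 3 and 0.22 without high-fat week 1 replicate 3. Leukocyte miRNAs averaged 10.92 ± 0.36 on day 1 and 9.39 ± 0.93 at week 1, and the median was -0.005 with their mean as a covariate. It was 0.16 with the muscle mean as a covariate and 0.27 without the 3 libraries lowest in leukocyte miRNA.

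From week 1 to week 3, the diets gave different medians for the block. On the control diet, 32 of 48 members were below 0 (57.5% of all tested miRNAs), with a median of -0.10, and edgeR, DESeq2 and limma-voom called none (0% of all for edgeR). None had an unadjusted p under 0.05 (1.61% of all tested miRNAs were higher and 0.717% lower at that level), and none was without overlap (0.538% higher and 0.358% lower). The smallest p was that of miR-666-5p (-0.60 ± 0.37, edgeR adjusted p = 0.993), which had -0.17 without control week 1 replicate 4 and -0.95 without control week 3 replicate 1. The median of the block was 0.23 without control week 1 replicate 4 and 0.08 without control week 3 replicate 3. It lay between -0.20 and -0.17 when control week 1 replicate 1 or 2, or control week 3 replicate 1 or 4, was left out. It was 0.03 with the muscle mean as a covariate, -0.18 with the leukocyte mean, 0.23 without the 3 libraries highest in muscle miRNA and -0.17 without the 3 lowest in leukocyte miRNA. On the high-fat diet, 47 of 48 members were below 0 (51.8% of all tested miRNAs), with a median of -0.75. edgeR, DESeq2 and limma-voom called none of them (0% of all for edgeR), while 29 had an unadjusted p under 0.05 (10.4% of all tested miRNAs were lower at that level). There were 13 members without overlap, all lower at week 3 (3.76% of all tested miRNAs). The high-fat libraries of week 1 also enter the diet comparison at week 1 and week 1 against day 1 on this diet, so these results are not independent. The leukocyte miRNAs of the high-fat libraries averaged 9.39 ± 0.93 at week 1 and 10.39 ± 0.39 at week 3, and with their mean as a covariate the median was -0.43. Epithelial miRNAs averaged 10.99 ± 0.86 and 10.25 ± 0.62 in the same libraries, and fibroblast miRNAs 9.55 ± 0.51 and 9.31 ± 0.27. These 2 lists were not used as covariates.

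Besides miR-369-3p, miR-541-3p and miR-154-5p had the smallest p from week 1 to week 3 of the high-fat diet. miR-541-3p, the minor arm of its hairpin, had 1.89, 2.99, 3.54 and 4.66 CPM at week 1 and 1.46, 0.531, 1.30 and 0.995 CPM at week 3. It differed by -1.50 ± 0.44 (edgeR adjusted p = 0.251). In the high-fat libraries, 3 counts corresponded to 0.64 to 1.27 CPM at week 1 and to 0.259 to 0.994 CPM at week 3. Some values of miR-541-3p lay near that level, so its difference rests on few counts. miR-154-5p had 26.2, 35.8, 42.7 and 37.7 CPM at week 1 and 13.6, 18.9, 20.1 and 13.9 CPM at week 3, a difference of -1.09 ± 0.32 (edgeR adjusted p = 0.251). Every week 1 library was above every week 3 library for both. miR-494-3p differed by -0.99 ± 0.31 (edgeR adjusted p = 0.251), also without overlap. miR-381-3p, with overlap, had -0.44 ± 0.45 (edgeR adjusted p = 0.661), with -0.15 without high-fat week 1 replicate 2 and -0.25 without high-fat week 3 replicate 3. All 25 tested members of the proximal block were below 0 in this comparison, with a median of -0.80, in the same libraries.

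The ratio of the 2 arms of a hairpin within a library does not depend on library size. Both arms were tested for 15 hairpins of the block, among 167 in all. The 5p arm exceeded the 3p arm in all 24 libraries for 6 of them, most of all for miR-541 (log2 ratio 7.43 on average) and miR-379 (5.37), and the 3p arm exceeded the 5p arm in all 24 for miR-299a and miR-409. For the other 7 the larger arm differed between libraries. limma called no hairpin of the block, and none of the 167, in any of the 7 contrasts of the ratio that were fitted (0% each). Between diets, 0 of the 15 had an unadjusted p under 0.05 on day 1 and at week 1, and 1 had at week 3, against 14, 6 and 6 of the 167. The hairpins without overlap between diets were miR-409 on day 1 (lower ratio, -0.38 ± 0.30, limma adjusted p = 0.889, 1.8% of the 167), miR-379 at week 1 (lower, -0.31 ± 0.19, limma adjusted p = 0.996, 2.4%) and miR-329 at week 3 (higher, 0.61 ± 0.25, limma adjusted p = 0.946, 1.2%).

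The arms of miR-369 come from this hairpin that overlaps a Mirg exon (chr12:109743418-109743496, plus strand), shown because its arms differed in their course over time, with the mature 5p and 3p arms in capitals.
miR-369 hairpin: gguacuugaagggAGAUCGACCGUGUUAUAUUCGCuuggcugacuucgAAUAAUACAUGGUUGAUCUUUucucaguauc

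On the control diet the log2 ratio of miR-369-5p to miR-369-3p was -1.90, -1.25, -2.34 and -1.78 on day 1, so the 3p arm was the larger. It was -0.56, -0.63, -0.08 and -1.01 at week 1, and -0.40, -1.08, -0.67 and -0.92 at week 3, and neither later group overlapped day 1. The difference from day 1 was 1.25 ± 0.31 at week 1, a contrast added after seeing the data (limma adjusted p = 0.0578, first of 167 by p), and 1.05 ± 0.31 at week 3 (limma adjusted p = 0.086). For each of these contrasts 1 hairpin of the block was without overlap on the higher side (4.19% and 3.59% of the 167). On the lower side 7.19% and 4.79% of the 167 were without overlap, and no hairpin of the block. An unadjusted limma p under 0.05 was found for 1 of the 15 hairpins of the block in each contrast, against 24 and 26 of the 167. limma called the ratio of miR-369 for week 1 against day 1 when control day 1 replicate 2 was left out (1.44, adjusted p = 0.048). miR-369-5p itself had 8.60, 15.7, 12.4 and 15.3 CPM on day 1, 9.57, 12.9, 16.4 and 14.3 CPM at week 1 and 15.6, 9.55, 9.77 and 12.4 CPM at week 3, with overlap throughout. Its log2 fold change from day 1 was 0.05 ± 0.33 at week 1 and -0.13 ± 0.33 at week 3. The change in ratio on this diet thus restates the decrease of miR-369-3p in the same libraries and is not a separate result.

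On the high-fat diet the ratio of miR-369 was -1.10, -1.47, -1.63 and -1.74 on day 1. It was -0.83, -1.03, 0.14 and -0.38 at week 1, without overlap, and -1.49, -0.54, 0.14 and -0.77 at week 3, with overlap. The differences from day 1 were 0.96 ± 0.31 (limma adjusted p = 0.121) and 0.82 ± 0.31 (limma adjusted p = 0.305). The arm ratio contrast of week 1 against day 1 on this diet was likewise added after seeing the data. An unadjusted limma p under 0.05 was found for 3 of the 15 hairpins of the block at week 1 and 2 at week 3, against 27 and 26 of the 167. The log2 ratio of miR-376b-5p to miR-376b-3p was 0.33, 0.21, 0.28 and 0.76 on day 1 of the high-fat diet, 0.92, 2.14, 1.53 and 1.10 at week 1, and 1.97, 0.97, 1.39 and 1.69 at week 3. Neither later group overlapped day 1 (4.79% and 3.59% of the 167 were higher without overlap, with 2 and 1 hairpins of the block), and the differences were 1.02 ± 0.31 (limma adjusted p = 0.0955) and 1.11 ± 0.31 (limma adjusted p = 0.163, first of 167 by p). On the control diet the ratio of miR-376b overlapped between day 1 and both later times.

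**Figure D5:**
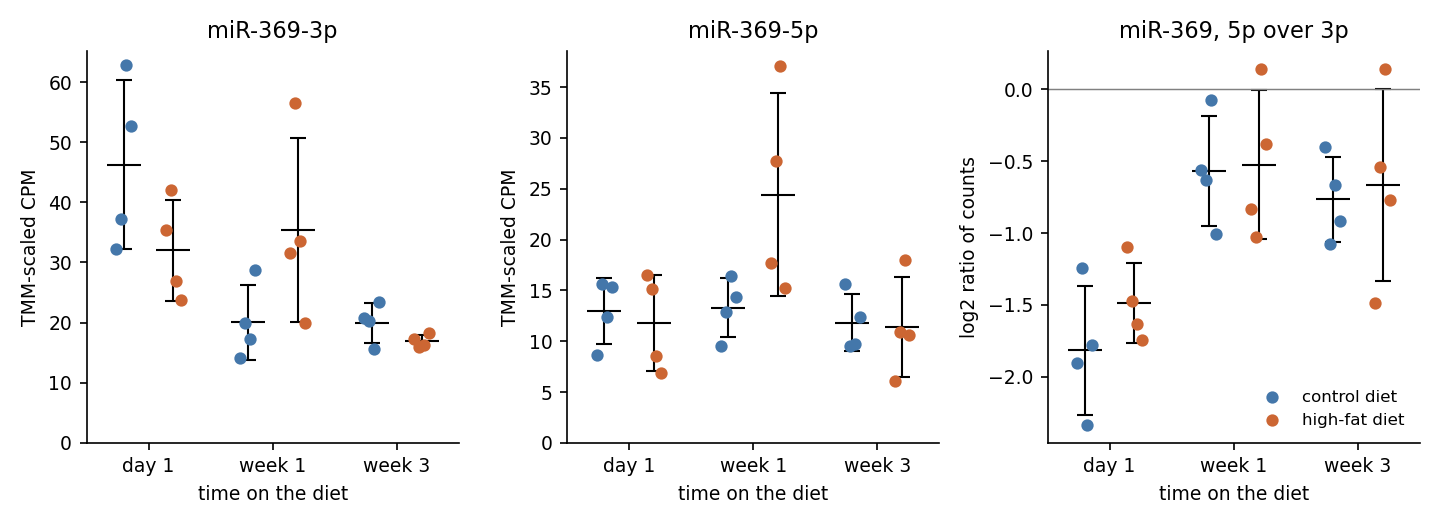
CPM of miR-369-3p (left) and miR-369-5p (middle) and the log2 ratio of their counts (right), by time on the diet, with 1 point per library and bars for the mean ± SD of 4 libraries. On the control diet the 3p arm lies at 32.3 to 62.8 CPM on day 1 and at 28.8 CPM or less later, while the 5p arm lies between 8.60 and 16.4 CPM.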

How the data were processed

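Small RNA libraries were made from total RNA with a multiplex small RNA kit, per the labels' protocols, and 24 libraries (6 groups of 4) were analysed. The authors deposited whole-number read counts per mature miRNA. FastQC, Trim Galore, Bowtie2, featureCounts and the build mm10 are named, without versions or settings, per the submitters' processing notes. The sources used here do not give the miRNA annotation, strand use or handling of reads with several matches, which bears on near copies and overlapping hairpins.

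Counts were tested with edgeR 4.0.16 (R 4.3.3): filterByExpr (minimum count 10, minimum total 15) kept 558 of 1907 miRNAs, the rest holding 0.0179% of counts. TMM scaling, 1 mean per group and the robust quasi-likelihood test followed, with Benjamini-Hochberg adjustment over the 558 (threshold 0.05). Intervals for fold changes are 95% intervals. Arm ratios were log2((5p + 0.5)/(3p + 0.5)) of counts, tested with limma 3.58.1 over 167 hairpins. DESeq2 1.42.0 and limma-voom with quality weights, other scalings and filters, covariates and left-out libraries were alternatives. Library totals of 1.99 to 16.3 M set the floor of 3 counts, which covers counting error only. The script for the tests was tested on simulated data.

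Named members were the 12 most abundant, those with the smallest p in each comparison, members of a seed group and members with a described role; not every member so named is given a value in every comparison. The members and lists were chosen with earlier results of these data known. Equal replicate numbers were not treated as pairs in the main fit, and the labels do not say what they share. Sequences and positions came from RefSeq (GRCm38.p6) and host genes from GENCODE vM21.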

Additional observations from a re-analysis of the deposited data

Results flagged for a closer look

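In 11 of 132 combinations of a group and a measure, 1 library of 4 stood apart from the other 3 by a gap above the 95% critical value of Dixon's test, which chance exceeds in about 1 in 20. Control week 1 replicate 4 was the high library for miR-541-5p (475.9 CPM, next 237 CPM), miR-376b-3p (39.89 CPM, next 18.19 CPM) and miR-495-3p (57.45 CPM, next 33.98 CPM). High-fat week 1 replicate 3 was the high library for miR-485-3p (76.75 CPM, next 43.13 CPM) and miR-323-3p (16.06 CPM, next 8.249 CPM). Control day 1 replicate 4 was high in the block's total (5863 CPM, next 4883 CPM) and in miR-541-3p (3.579 CPM, next 1.58 CPM). Control day 1 replicate 1 was low in miR-382-5p (71.61 CPM, next 99.55 CPM) and miR-376c-3p (11 CPM, next 19.97 CPM). miR-541-5p was low in control week 3 replicate 3 (170.5 CPM, next 271.9 CPM), and miR-134-5p was low in high-fat day 1 replicate 3 (94.65 CPM, next 142.6 CPM).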

How the results depend on the processing

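The depth of the libraries limits the 29 untested members and the minor arms, which had few counts. The week 1 diet median stayed above 0 under all 22 alternatives (0.27 to 0.94), whereas the medians of day 1 and week 3 changed sign in 2 of 22 each. With the leukocyte mean as a covariate, the median was 0.27 for diet at week 1, -0.0049 for week 1 against day 1 on the high-fat diet, and 0.23 and -0.30 for the difference in diet effect between week 1 and day 1 and between week 3 and week 1. The number of called members, 0 in edgeR, was 5 for diet at week 1 without the 3 libraries highest in muscle miRNA. For week 1 against day 1 on the control diet it was 1 with DESeq2, 7 with limma-voom, and 1 with the muscle covariate or without those 3 libraries, and leaving out 1 library gave 0 to 3. For week 3 against day 1 on the control diet it was 1 with DESeq2, limma-voom, the muscle covariate, the leukocyte covariate or without those 3 libraries, and leaving out 1 library gave 0 to 1. For week 1 against day 1 on the high-fat diet it was 1 with DESeq2 and 1 with limma-voom, and for week 3 against day 1 on that diet 1 with limma-voom and 1 with the muscle covariate. The number of called arm ratios for week 1 against day 1 on the control diet was 0 to 1 when 1 library was left out. The cause was not tested.

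Leaving out 1 library changed the sign of 5 named values. On day 1 the diet value ranged from -0.219 to 0.0502 for miR-379-5p (0.0502 and 0.0408 when control replicates 3 and 4 were left out, 0.0490 for high-fat replicate 3) and from -0.358 to 0.0256 for miR-381-3p (0.0256 for control replicate 4). At week 3 it ranged from -0.0203 (control replicate 3 left out) to 0.371 for miR-379-5p. For miR-381-3p it ranged from -0.170 to 0.313 (-0.170 for control replicate 3, -0.0540 and -0.124 for high-fat replicates 1 and 4). The value of miR-369-3p for week 1 against day 1 on the high-fat diet ranged from -0.175 (week 1 replicate 2 left out) to 0.336, with -0.0111 for day 1 replicate 3.

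With the replicate number as a block, medians were -0.13, 0.66 and -0.10 for diet on day 1, at week 1 and at week 3, and no member was called in any comparison. Of 60 pairs of libraries with the same number, 21 had a correlation of deviations over 0.1 (median -0.028). These values cannot show whether equal numbers share an animal or a preparation, which the labels do not state.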

Other observations

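miR-381-3p held its highest shares of the block, 34.96%, 33.84% and 30.44%, in the 3 libraries with the most skeletal muscle miRNA (replicate 2 of high-fat feeding and replicate 4 of control feeding at week 1, and replicate 4 of high-fat feeding at week 3). Its lowest share, 16.75%, was in replicate 1 of control feeding at week 1. This was noticed in the data and was not tested.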
